A study of Mus musculus with 4 samples.

Results

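BMP ligands, their extracellular antagonists and their receptors were examined in embryonic mouse ureters in which the release of WNT ligands had been blocked. The 9 genes Bmp2, Bmp4, Bmp5, Bmp7, Grem1, Nog, Bmper, Bmpr1a and Bambi were chosen by name, and every probe that carried one of these names on the array was taken, 10 probes in all. All 9 genes passed the filter on background, out of 22455 genes tested and 29924 gene names on the array. Ureters of wildtype NMRI embryos of stage E12.5 were explanted and kept in culture for 18 h, in a medium with IWP-2 at 10 µM. IWP-2 is an inhibitor of the acyltransferase Porcupine, without which WNT ligands are not secreted. Control ureters of the same strain, genotype and stage received the solvent DMSO (2:1000) for the same time. RNA of 1 treated and 1 control pool of ureters was hybridised together on each of 4 two-colour arrays, with the treated RNA in the red channel on arrays 1 and 3 and in the green channel on arrays 2 and 4. The methods of the study give n = 4 for this stage, while its results text speaks of 2 arrays. The labels do not say whether the 4 pairs of pools came from separate cultures, so that the p-values below measure the spread between these 4 arrays, which may be technical.

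BMPs are secreted dimers that bring type I receptors such as BMPR1A together with type II receptors, after which SMAD1, SMAD5 and SMAD9 are phosphorylated and enter the nucleus with SMAD4. Antagonists such as Gremlin and Noggin bind the ligands outside the cell, BMPER binds them and can dampen or promote their action, and BAMBI is a receptor-like membrane protein that lacks a kinase domain and blocks signalling. In the ureter, BMP4 from the mesenchyme around the epithelial tube is known to promote smooth muscle formation and differentiation of the epithelium.

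Exposure to IWP-2 lowered Bmp4 and Bmp5 among the ligands, all 3 of the antagonists and extracellular modulators, and the pseudoreceptor Bambi, and raised Bmp7. Bmp4 changed most, with a 2.47-fold decrease. Of the 9 genes, 6 were lower and 1 was higher at an adjusted p under 0.05 (limma, Benjamini-Hochberg), and 2, Bmp2 and Bmpr1a, did not pass. Over all genes tested, 15.0% were called lower and 18.1% higher. Known WNT target genes were also lower: log2 changes were -1.56 ± 0.09 for Axin2, -2.72 ± 0.28 for Sp5, -1.47 ± 0.16 for Lef1 and -1.59 ± 0.08 for Nkd1 (SD, n = 4).

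The RefSeq promoter table (build GRCm38.p6) held an entry for 5 of the 9 genes, Bmp4, Bmp5, Grem1, Bmper and Bmpr1a. The 250 bases before the start of Bmp4, Bmp5 and Grem1, both ligand genes and one antagonist gene among the genes called lower, are shown so that the letters searched can be seen, in lower case with any match in capitals. The windows lie for Bmp4 at chr14:46390670-46390919 on the minus strand, Bmp5 at chr9:75775115-75775364 on the plus strand and Grem1 at chr2:113758649-113758898 on the minus strand.
Bmp4: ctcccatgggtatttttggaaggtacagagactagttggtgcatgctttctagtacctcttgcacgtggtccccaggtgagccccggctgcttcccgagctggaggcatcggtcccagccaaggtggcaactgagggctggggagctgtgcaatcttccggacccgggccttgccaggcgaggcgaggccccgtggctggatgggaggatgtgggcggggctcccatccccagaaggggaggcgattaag
Bmp5: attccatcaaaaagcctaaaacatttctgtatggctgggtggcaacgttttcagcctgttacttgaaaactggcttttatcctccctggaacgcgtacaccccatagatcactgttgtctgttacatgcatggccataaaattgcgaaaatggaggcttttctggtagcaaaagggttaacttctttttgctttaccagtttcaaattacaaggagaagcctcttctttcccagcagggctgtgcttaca
Grem1: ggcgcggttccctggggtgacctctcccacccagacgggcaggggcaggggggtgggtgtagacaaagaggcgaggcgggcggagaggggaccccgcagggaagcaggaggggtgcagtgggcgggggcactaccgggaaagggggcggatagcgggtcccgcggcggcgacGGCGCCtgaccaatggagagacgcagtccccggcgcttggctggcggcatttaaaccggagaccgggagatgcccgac
The TCF/LEF word AACAAAG, its close form ATCAAAG, the form TACAAAG as well as the form TTCAAAG were found on neither strand of any of the 5 windows, while 14.8% of all 32851 promoter windows of this length hold one of them. The GLI word GACCACCCA, held by 0.225% of all windows, was likewise in none of the 5. The GC-rich SMAD word GGCGCC, held by 9.59% of all windows, occurred once in the Grem1 window, with its first base 78 bases before the start, and once in the Bmpr1a window, 198 bases before the start. These matches describe letters in a short window and were not tested as binding sites. The GC content was 63.2% for Bmp4, 42.8% for Bmp5, 72% for Grem1, 71.6% for Bmper and 78.8% for Bmpr1a. The median of all windows was 52.4%. The shares over all windows were not matched for GC content, so that presence or absence of a word cannot be weighed against them. For Bmp4 the paper lists overlapping CTNNB1 and TCF/LEF binding peaks from public data of various mouse tissues.

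Bmp4 was read by 2 probes. The probe at chr14:47003391-47003450 (mm9, minus strand) gave processed signals, in scanner units after the background subtraction and dye correction of the scanner software, of 30026, 27091, 41187 and 33199 in the controls of arrays 1 to 4. After IWP-2 the signals were 13412, 10506, 15457 and 13143. Every treated pool lay far below every control pool. The log2 ratio of treated to control, computed from the raw signals with loess correction within each array, was -1.31 ± 0.12 (SD, n = 4), with a 95% interval from -1.43 to -1.18 and an adjusted p of 2.86e-05 (limma). On the scale of all genes, the mean change of Bmp4 took rank 87 from the lowest. Array 1 gave -1.13, and the others gave -1.37, -1.37 and -1.35. The 4 spots of the probe on one array differed by an SD of only 0.03 to 0.04, so that the distance of array 1 from the others was larger than the error between spots. The second Bmp4 probe, at chr14:47003198-47003257 on the same strand, was not well above background in either channel of any array, with signals between 0.804 and 1.49, and gives no ratio.

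Bmp5, a ligand of the same family that is closer to Bmp7 in sequence than to Bmp4, was read at chr9:75746444-75746503 (mm9). Its control signals were 1062, 901, 1172 and 1249 on arrays 1 to 4, and the signals after IWP-2 were 581, 671, 790 and 849. The groups did not overlap, although the highest treated signal lay close to the lowest control. The log2 change was -0.61 ± 0.19 (SD, n = 4), a 1.52-fold decrease, with an adjusted p of 0.000839 (limma). Its change was smaller than that of Bmp4 on each of the 4 arrays, and the 95% intervals of both genes did not overlap (-0.75 to -0.46 for Bmp5).

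Bmp7, which binds type I receptors including ACVR1, was the only one of the 9 genes that rose. Its probe at chr2:172695203-172695262 (mm9, minus strand) gave 280, 359, 469 and 390 in the controls, and 383, 499, 677 and 510 with IWP-2. Signals of the groups overlapped between arrays, but on each array the treated pool was the brighter one. The log2 change of 0.42 ± 0.06 (SD, n = 4) was a 1.34-fold increase with an adjusted p of 0.000817 (limma), at rank 606 from the highest among all genes tested. Markers of the ureteric epithelium also rose: 7 of 7 were higher, against 18.1% of all genes tested. The log2 changes of these markers ran from 0.24 to 0.34, with a median of 0.30. The summed signal of these markers was 40882 to 54041 in controls and 46388 to 67147 with IWP-2. Their part in the Bmp7 value was not tested. In RNA from whole explants, fewer cells of a type and less RNA per cell cannot be told apart, for all genes given here.

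Bmp2, the close relative of Bmp4, did not pass the test. The probe at chr2:133388260-133388319 (mm9) gave control signals of 131, 126, 205 and 184 and treated signals of 140, 135, 149 and 167. The log2 ratio was above 0 on arrays 1 and 2 and below 0 on arrays 3 and 4, with a mean of -0.10 ± 0.24 (SD, n = 4), a 95% interval from -0.32 to 0.11 and an adjusted p of 0.421 (limma). Without array 3 the mean was 0.03, and without array 1 it was -0.24 with an adjusted p of 0.0411, so that single arrays decided both direction and call.

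**Figure D1:**
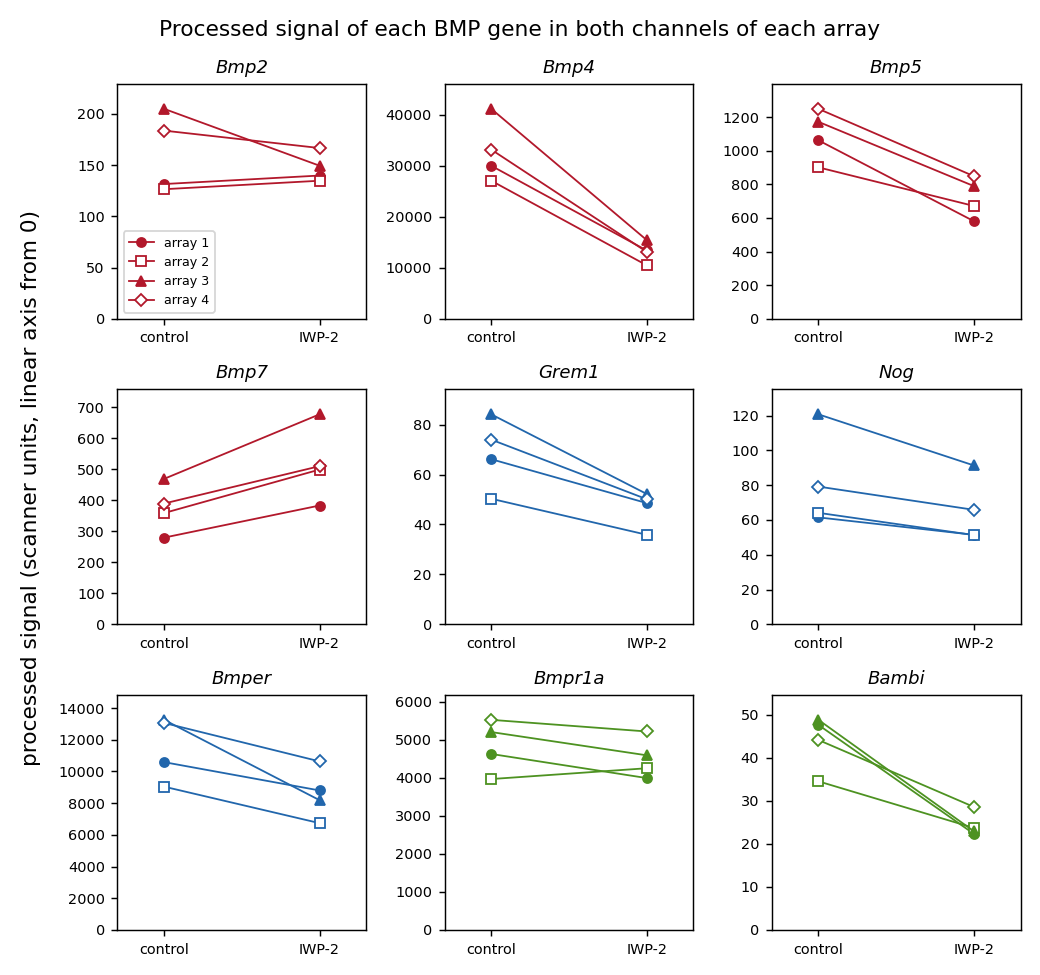
Processed signal in scanner units (linear axes from 0) of each BMP gene in the control and the IWP-2 channel of each array, with a line joining both channels of one array. Filled symbols mark arrays with treated RNA in red, open symbols those with treated RNA in green. For Bmp4 every line falls steeply, from 27091 to 41187 in the controls to 10506 to 15457, while the lines of Bmp7 all rise and those of Bmp2 go both ways.

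The 3 antagonists and extracellular modulators all fell, by less than Bmp4. Grem1, which encodes Gremlin, a cystine-knot protein that holds BMP2, BMP4 and BMP7 away from their receptors, was dim. Its probe at chr2:113589227-113589286 (mm9, minus strand) gave 66.2, 50.3, 84.1 and 74.0 in the controls and 48.6, 35.9, 52.2 and 50.1 with IWP-2. The treated pool was dimmer on each array, and between arrays the groups overlapped by the single control of array 2. The log2 change was -0.42 ± 0.10 (SD, n = 4), a 1.34-fold decrease, with an adjusted p of 0.00199 (limma).

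Nog encodes Noggin, which binds BMP ligands and hides their receptor contacts. Its 60-base probe at chr11:89162849-89162908 (mm9, minus strand) is shown because this dim value rests on it alone.
Nog probe: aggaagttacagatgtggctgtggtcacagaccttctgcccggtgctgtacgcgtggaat
The control signals were 61.5, 64.1, 121 and 79.2, and the treated signals 51.5, 51.3, 91.3 and 65.8. Arrays differed more than treatments did, since both channels of array 3 were brighter than all others, but on every array the treated pool was the dimmer one. The log2 change was -0.25 ± 0.08 (SD, n = 4), a 1.19-fold decrease with an adjusted p of 0.00854 (limma), the smallest of the 7 changes called.

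The modulator gene Bmper was read at chr9:23289301-23289360 (mm9). It had control signals of 10590, 9042, 13260 and 13065 and treated signals of 8802, 6738, 8189 and 10638. It was lower on each array, most on array 3 at -0.76, against -0.33, -0.37 and -0.24 on arrays 1, 2 and 4. The mean log2 change was -0.43 ± 0.23 (SD, n = 4) with an adjusted p of 0.0069 (limma), and the spots within an array differed by an SD of 0.01 to 0.04. Both Nog and Bmper lost their call when the 8 channels were taken as separate samples (adjusted p = 0.334 and 0.066), which sets aside that treated and control pools shared an array.

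Bmpr1a encodes the type I receptor through which BMP2 and BMP4 signal. Its probe at chr14:35224339-35224398 (mm9, minus strand) gave control signals of 4630, 3969, 5206 and 5528 and treated signals of 3995, 4254, 4594 and 5222. The groups overlapped almost wholly. The log2 change was -0.09 ± 0.17 (SD, n = 4), with a 95% interval from -0.20 to 0.02 and an adjusted p of 0.167 (limma). With treated RNA in red the mean of both arrays was -0.23, and with treated RNA in green it was 0.04.

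Bambi, the pseudoreceptor gene, gave dim signals at its probe at chr18:3516008-3516067 (mm9). Its control signals were 47.7, 34.5, 48.8 and 44.2, and the signals with IWP-2 were 22.3, 23.7, 22.9 and 28.6. No treated pool reached the level of any control pool. The log2 change was -0.53 ± 0.20 (SD, n = 4), a 1.44-fold decrease with an adjusted p of 0.00033 (limma). The change was -0.70 with treated RNA in red and -0.36 with treated RNA in green. An offset of 50 was added to all signals before the logarithm, which understates the change of dim probes. On the processed signals, which have no such offset, Bambi changed by -0.84, Grem1 by -0.55 and Nog by -0.31. An unadjusted p under 0.05 for the dye term was found for Bambi (0.00436) and Bmpr1a (0.0243, limma). The same held for 18.9% of all genes tested, where a share of 0.05 would arise without dye effects. After adjustment no gene kept a dye effect at that threshold, with 0.122 the lowest adjusted p (limma). With 4 arrays this does not show that these genes are free of a dye effect. In a fit without the dye term the adjusted p was 0.00302 for Bambi and 0.381 for Bmpr1a (limma), and neither call changed.

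**Figure D2:**
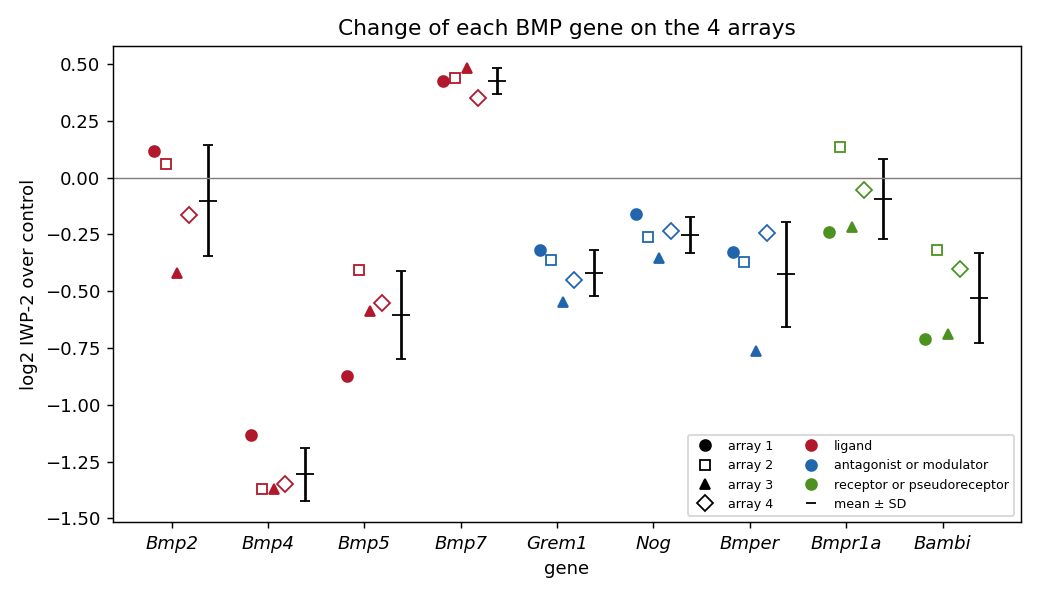
Log2 ratio of IWP-2 over control on each of the 4 arrays for each gene, with the mean and SD beside the points. Colours give the role of the gene, and filled symbols mark arrays with treated RNA in red. Bmp4 lies between -1.37 and -1.13 on all arrays, Bmp7 between 0.35 and 0.48, and Bmp2 and Bmpr1a scatter around 0.

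Set side by side, the roles could not be ordered. The median log2 change of the 4 ligands was -0.38, -0.17, -0.50 and -0.36 on arrays 1 to 4. That of the 3 antagonists and modulators was -0.32, -0.36, -0.55 and -0.24. That of the receptor and the pseudoreceptor was -0.47, -0.09, -0.45 and -0.23, while the median of all genes lay between -0.0025 and 0.0093. On each array all 3 roles had a median below that of all genes, but which role was lowest changed from array to array. The ligands spread widest, from -1.31 for Bmp4 to 0.42 for Bmp7, and the antagonists least, from -0.43 for Bmper to -0.25 for Nog. On processed signals the antagonists ran from -0.55 for Grem1 to -0.31 for Nog. The median of the mean changes of the receptor and the pseudoreceptor was then -0.47 in place of -0.31.

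Signals of treated and control pools did not overlap over all 4 arrays for 3 of the 9 genes, Bmp4, Bmp5 and Bambi, all of them lower. Among all genes tested, 3.80% had every treated signal below every control and 2.76% had every treated signal above. The cut-offs named in the study are a change over 2-fold at an intensity over 100, and were required here on all 4 arrays. For this stage the results text of the study speaks of 2 arrays, and its methods give n = 4. By these cut-offs Bmp4 alone of the 9 genes was counted as lower and none as higher, against 0.428% of all genes counted as lower.

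**Figure D3:**
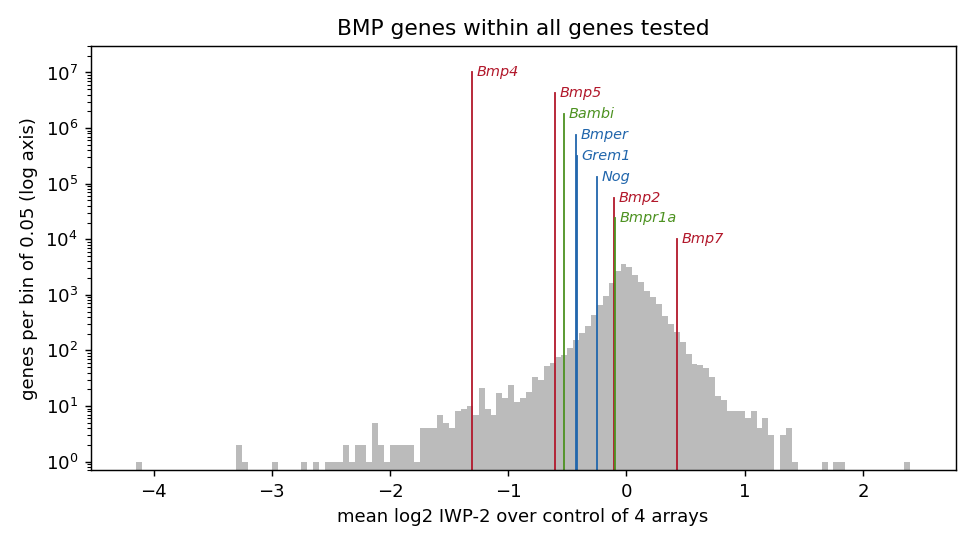
Distribution of the mean log2 change over the 22455 genes tested (grey, number of genes per bin on a log axis), with a line at the value of each BMP gene, coloured by role as in the plot of changes by array and of a height set only to part the names. Bmp4 at -1.31 stands in the sparse lower tail, and Bmp2 and Bmpr1a stand in the dense centre.

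The genes whose 4 ratios came nearest to those of Bmp4, by Euclidean distance over the 4 arrays among 17838 other tested genes with a RefSeq name, were St6galnac5, Ntng1, Tcf7, Sct and Rasl12, at distances of 0.12, 0.121, 0.146, 0.197 and 0.21. St6galnac5 encodes a sialyltransferase, Ntng1 a netrin-like guidance protein, Tcf7 a transcription factor that binds β-catenin, Sct the hormone secretin and Rasl12 a small GTPase. Their log2 changes were -1.29, -1.35, -1.31, -1.25 and -1.22.

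The wider pathway was read from lists of 51 further genes, of which 46 passed the filter. Of these, 21 were lower, 2 were higher and 23 did not pass the test, against 15.0% lower and 18.1% higher over all genes tested. Without the 8 target and feedback genes, 13 of 38 were lower and 2 were higher. Gdf2, Sost, Cer1, Tll2 and Hfe2 did not pass the filter on background.

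Among other antagonists, 6 of 10 fell and 1 rose, against 15.0% lower and 18.1% higher over all genes tested. Follistatin (Fst), a secreted binding protein of activins and BMPs, changed by -0.97 ± 0.05 on the log2 scale (SD, n = 4). The chordin-like genes Chrdl1 (-0.86 ± 0.06) and Chrdl2 (-0.92 ± 0.18), Vwc2 (-0.70 ± 0.07), Sostdc1 (-0.60 ± 0.37) and Fstl3 (-0.46 ± 0.10) also fell, with adjusted p for all 6 of at most 0.0146 (limma). Chrdl2, Vwc2, Sostdc1 and Fstl3 were dim, with mean control signals of 92.7, 35.2, 113 and 100. They were not tested when a mean processed signal over 100 was the filter. Nbl1, which encodes the antagonist DAN, rose by 0.40 ± 0.05, and lost its call with the channels as separate samples (adjusted p = 0.139, limma). Chrd, Fstl1 and Dand5 did not pass, with log2 changes of -0.10, -0.09 and -0.03. Vwc2 has a second, dimmer probe that gave -0.02, so that the mean of both probes was -0.36, and on processed signals the brighter probe gave -1.32. Sostdc1 stood at -0.38 without array 4, and lost its call in the series table (adjusted p = 0.153, limma).

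Of the other ligands, 2 of 10 fell, a share near the 15.0% of all genes called lower: Gdf10 by 0.77 ± 0.14 and Bmp6 by 0.48 ± 0.12 on the log2 scale, and the remaining 8 lay between -0.13 and 0.15. Bmp6 was dim, with mean signals of 48.2 in controls and 29.8 with IWP-2, and changed by -0.72 on processed signals. In the series table Bmp6 stood at -0.75 and did not pass (adjusted p = 0.069, limma). Among other extracellular modulators 2 of 5 fell. Tll1, a tolloid-like protease of the family that cleaves the antagonist Chordin, changed by -2.04 ± 0.15 with an adjusted p of 1.22e-05 (limma). The Tll1 probe used had mean signals of 171 in controls and 26.2 with IWP-2, and gave -2.71 on processed signals. A second, dimmer Tll1 probe gave -0.23, and the mean of both was -1.13. Twsg1, a BMP-binding partner of Chordin, changed by only -0.20 ± 0.15 (adjusted p = 0.0201, limma), and lost its call without array 3 (adjusted p = 0.0892) or array 4 (0.0838). The Twsg1 call was also lost without the dye term (0.0642), with the channels as separate samples (0.182) and in the series table (0.0904, limma).

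Other receptors and co-receptors mostly did not pass. Of 9 tested, 2 were lower and 1 was higher, near the shares of 15.0% and 18.1% over all genes. The co-receptor gene Rgmb fell by 0.43 ± 0.20 and the type I receptor gene Acvr1 by 0.24 ± 0.19 on the log2 scale, and the type II receptor gene Acvr2b rose by 0.16 ± 0.08 (SD, n = 4). The adjusted p of Acvr1 was 0.036 and that of Acvr2b 0.0269 (limma). Without array 3 Acvr1 stood at -0.14, and with the mean of both of its probes Acvr2b stood at 0.04. The Acvr1 call was lost without array 2 or array 3 (adjusted p = 0.0839 and 0.11), and that of Acvr2b without array 1, 3 or 4 (0.114, 0.0501 and 0.11). Acvr1 and Acvr2b also lost their calls on processed signals (0.0696 and 0.0524), with the channels as separate samples (0.084 and 0.473) and in the series table (0.155 and 0.0684). Acvr1 did not pass with an offset of 0 (0.0544) or without the dye term (0.0514), nor Acvr2b with median centring (0.144). Rgmb did not pass in the series table (0.101, limma). The 6 others, among them Bmpr1b at 0.05 and Bmpr2 at -0.07, lay between -0.07 and 0.13. Of the SMAD transducers, Smad9 fell by 0.89 ± 0.15 with an adjusted p of 0.00024 (limma), and Smad1, Smad4 and Smad5 stood at -0.06, 0.05 and 0.10 and did not pass.

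The target and feedback genes Id1, Id2, Id3, Id4, Msx1, Msx2, Smad6 and Smad7 were all lower, 8 of 8, against 15.0% of all genes tested. Their log2 changes ran from -1.48 for Id4 to -0.31 for Smad7. All have been described as responding to BMP signalling. With the series table Id3 and Smad6 did not pass (adjusted p = 0.0512 and 0.0684), and with the channels as separate samples Smad7 did not (0.0865, limma).

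**Figure D4:**
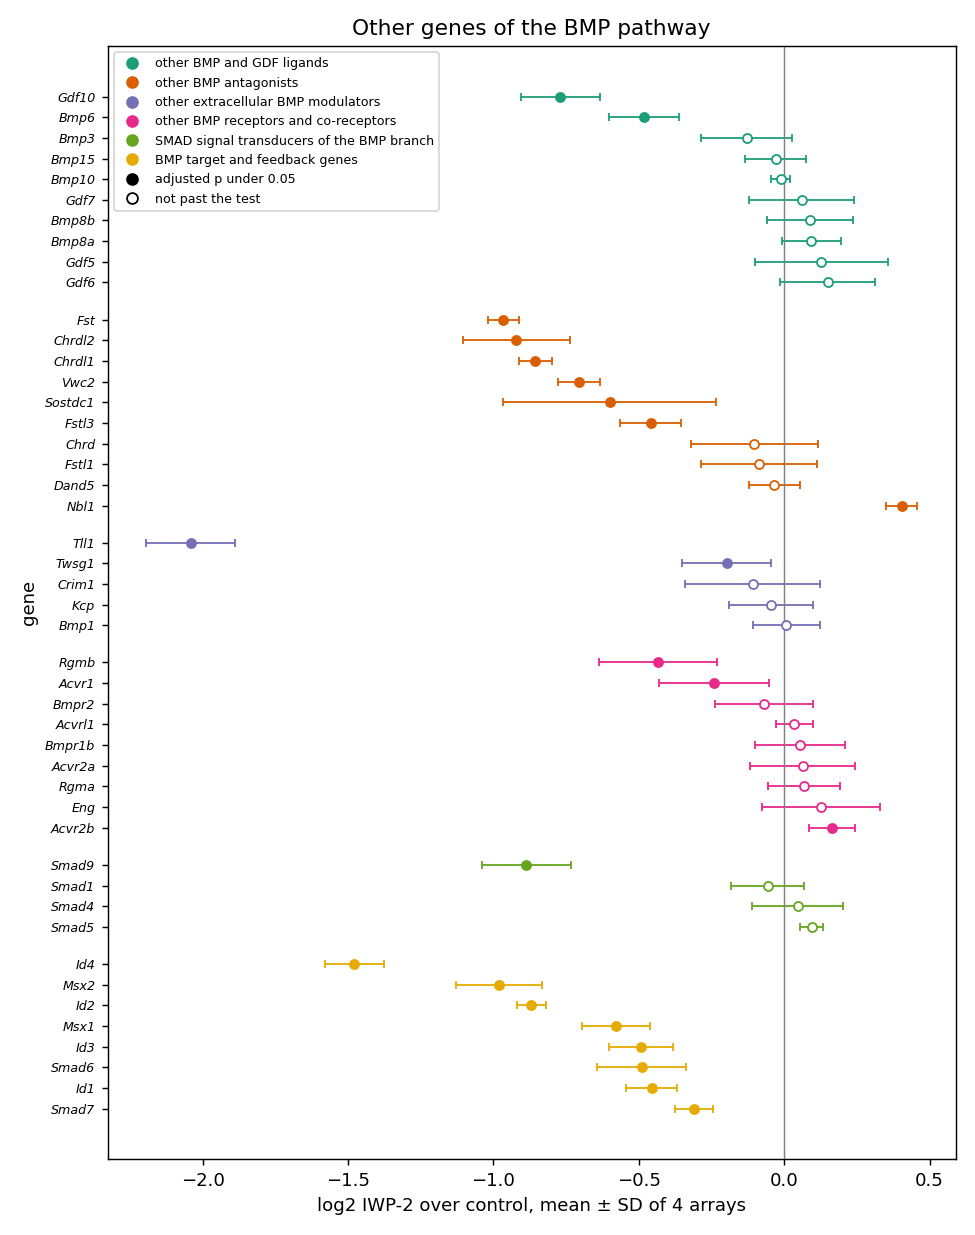
Mean log2 change with SD of 4 arrays for the 46 other BMP pathway genes tested, by list, with filled symbols for an adjusted p under 0.05. The antagonists (6 of 10 lower) and the target genes (8 of 8 lower) lie mostly left of 0, and the receptors lie near it.

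Markers of the cells in the explants moved as well, where 15.0% of all genes tested were called lower and 18.1% higher. All 6 smooth muscle markers fell, with log2 changes from -0.98 to -0.18, and their summed signal was 7487 to 14020 in controls and 4807 to 8051 with IWP-2. Of 6 ureteric mesenchyme markers, 1 fell (Tbx18, by 0.74) and 1 rose (Pdgfrb, by 0.80), and the summed signal of 84239 to 116098 in controls overlapped that of 90734 to 118138 with IWP-2. Markers of endothelium (5 of 6 higher), blood (4 of 6), macrophages (5 of 6), neural crest derivatives and neurons (2 of 6) and renal mesenchyme (5 of 6 higher and 1 lower) had median log2 changes from 0.15 to 0.27. Among these lists the renal mesenchyme markers spread widest, from -0.96 for Crym to 1.14 for Six2. Not all of those called higher rose on every array. The log2 ratio was below 0 for Hbb-y on arrays 2 and 4 (-0.10 and -0.14), Hba-a1 on array 2 (-0.03) and Eya1 on array 3 (-0.07). Hbb-y split by dye, since arrays 1 and 3, with treated RNA in red, gave 0.61 and 0.73. Its dye term of 0.40 was larger than its mean change of 0.28. Hba-a1, Hbb-b1, C1qa and C1qb were also higher on arrays 1 and 3 than on arrays 2 and 4. Eya1 split the other way, at 0.32 and 0.40 on arrays 2 and 4. Hba-x, Adgre1, Cd68 and Mrc1, also called higher, showed no such split. The blood and macrophage counts include genes with and without it. All markers of these lists that are on the array passed the filter on background. The part of these markers in the changes of the BMP genes was not tested.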

How the data were processed

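RNA of IWP-2-treated and control ureters was compared on 4 two-colour Agilent arrays. Per the file headers and labels, the authors scanned each array and extracted it with Agilent Feature Extraction 10.7.3.1, and the deposited files hold raw and processed signal intensities and the log10 ratio of red over green for each of 174979 spots, annotated on mm9. The deposited series table holds the authors' signed fold changes, and was used only as an alternative. Red and green were assigned to treated and control RNA from the dyes in the labels.

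Raw mean intensities and local background were corrected by normexp with an offset of 50 and a loess curve of span 0.3, from which control spots were kept out by a weight of 0, was then removed from every array with limma 3.58.1 (R 4.3.3). Control spots and spots marked as outliers (3.01% to 3.38% of gene spots) were left out, and the 4 spots of each of 39429 probes were averaged as log2 ratios of treated over control. A probe was tested if over 0.5 of its spots were well above background in one group on all 4 arrays (29933 probes), and the brightest probe stood for its gene. The fit held the treatment and a dye term (lmFit, eBayes), with Benjamini-Hochberg adjustment over all 22455 genes at 0.05. No gene spot was saturated, and medians of raw intensity per channel lay between 368 and 711. The number of arrays limits the precision. All 4 arrays lie on 1 slide, so that no slide effect could be estimated. Across genes, ratios of different arrays correlated with r between 0.625 and 0.831, as a description. The ratios of array 1 minus array 3 and of array 2 minus array 4 correlated at r = -0.04 across genes, which gives no pairing of the arrays. The procedure was tested on simulated data.

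Named were the 9 BMP genes with all their probes, every gene of the other BMP lists that passed, the 5 genes nearest to Bmp4, 4 WNT target genes and marker lists as counts. An antagonist gene of the lists is not reported here and stands in none of their counts. Members and lists were chosen with earlier results of these data known. Promoter letters came from RefSeq (GRCm38.p6). The other settings tried were other background corrections, scalings, probe filters, probe summaries and dye models, dye-swap pairs as replicates, the series table, and leaving out each array.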

Additional observations from a re-analysis of the deposited data

Results flagged for a closer look

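Bmp4 on array 1, at a log2 ratio of -1.13, lay apart from the other 3 arrays at -1.37, -1.37 and -1.35, by Dixon's test for a far value among 4. The test was run on 33 sets of 4 ratios, and chance flags about 1 in 20 such sets. Bmp4 stayed lower without that array, at -1.37.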

How the results depend on the processing

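Bmp4, Bmp5, Bmp7, Grem1 and Bambi kept direction and call in every setting that tested them, with Bmp4 between -1.37 and -1.25 on the log2 scale. Bmp7 and Grem1 kept theirs narrowly. Their highest adjusted p were 0.0484 for Bmp7, with the channels as separate samples, and 0.0466 for Grem1, with the series table (limma). Those of Bmp5, Bmp4 and Bambi were 0.0339, 0.00965 and 0.0062 (limma). With a mean processed signal over 100 as the filter, Grem1, Nog and Bambi were not tested, 3 members were called lower in place of 6, and the receptor median was that of Bmpr1a alone, -0.094. With the same filter Bmp6, Chrdl2, Fstl3, Sostdc1, Tll1 and Vwc2 were not tested either, and 15 other pathway genes were called lower in place of 21. Nog and Bmper lost their calls with the 8 channels as separate samples without a replicate block (adjusted p = 0.334 and 0.066) and with the series table (0.0684 and 0.13), and 4 members were then called lower in each (limma). Bmp2 turned to 0.031 without array 3 and was called lower without array 1 at -0.24. Without each array in turn, 1 (without array 1) to 2 other pathway genes were called higher, and 2180 (without array 3) to 2813 of all genes lower, against 3360 with all arrays. Other pathway genes called higher numbered 1 on processed signals and with median centring, and 0 with separate channels, where 1334 genes in all were lower and 1288 higher. With the series table these were 2050 and 1833, and 15 other pathway genes were called lower in place of 21. The causes of these shifts were not tested. With dye-swap pairs as the unit the count of members called was the same. The values given in the report are already paired, since each is a ratio of the treated and the control pool of one array.

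Signals of Grem1, Nog and Bambi were all at or below 121 scanner units.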
